A study of Mus musculus with 6 samples.

Results

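The genes described here encode the laminins, the integrins and 5 other proteins of the basement membrane and the matrix that integrins bind. They were the symbols of the count table that named a laminin alpha, beta or gamma chain, an integrin alpha or beta subunit, nidogen (Nid1, Nid2), perlecan (Hspg2), agrin (Agrn) or fibronectin (Fn1). Of 45 matching symbols, the 3 integrin-binding proteins Itgb1bp1, Itgb1bp2 and Itgb3bp were dropped, which left 42 of 24421 genes. They comprised 11 laminin chains, 4 basement membrane glycoproteins, fibronectin, 16 integrin alpha subunits, 9 integrin beta subunits and the integrin beta-like protein Itgbl1. The leukocyte integrin alpha subunit Itgam was not part of this selection.

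RNA-seq was performed on wild-type mouse cochlear explants taken at P2, in 3 control samples and 3 samples titled as neomycin-treated, each from a pool of 6 to 8 cochleae. Explants were precultured for 12 h, exposed to 1 mM neomycin, an aminoglycoside that kills hair cells (HCs), for 6 h, and then kept for 5 days in medium with EdU, a label of newly made DNA, at 10 μM. The protocol text of the control samples carries the same neomycin step, so the groups rest on the sample titles. The design text of the series names a cell line, which matches neither the sample titles nor the study's methods, and was not used. The comparison asks which genes differ once the explants have lived on past the damage. Per the study's methods, the early stria vascularis, the modiolus (the core that holds the spiral ganglion) and the tectorial membrane were dissected away before culture. The explants still hold several cell types, so fewer cells of a type and less RNA per cell cannot be told apart. Nothing states that the pools within a group came from separate cultures, and p-values measure the spread between these samples only.

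A basement membrane is a thin sheet of extracellular matrix on which epithelia, vessels and Schwann cells rest. Laminins are cross-shaped trimers of 1 alpha, 1 beta and 1 gamma chain that assemble into its first network, and nidogens and perlecan tie this network to type IV collagen. Integrins are membrane receptors of 1 alpha and 1 beta subunit. The pair decides the ligand, which can be laminin, collagen or a protein with the Arg-Gly-Asp (RGD) peptide such as fibronectin. The inside of most of these receptors is joined to actin. In the cochlea these proteins lie under the sensory epithelium, along the nerve fibres and around the vessels.

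Total counts ran from 50471116 to 66068108 per sample. The hair cell check of the labels went the way of the titles, with 14 of 16 HC markers lower after neomycin and a summed level of 957 to 1120 CPM (reads scaled for library depth) in control and 352 to 412 CPM after neomycin. Myo7a and Pou4f3, which mark HCs, were detected in all 6 samples. All CPM values below are after TMM scaling.

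Of the 42 genes, 41 passed the low count filter and were tested. A gene was called where the adjusted p of edgeR's quasi-likelihood test was under 0.05 and the fold change over 1.5. The integrin subunits Itga1, Itga2, Itgb3 and Itgb8 were called lower after neomycin, and no member was called higher. These 4 are 9.76% of the 41, beside 6.60% of the 15988 genes tested that were called lower and 2.24% called higher. With the adjusted p alone, 15 members (36.6%) were lower and 2 (4.88%) higher, beside 16.1% and 12.9% of all genes. The 3 neomycin values lay below all 3 control values in 16 members (39.0%) and above them in 3 (7.32%), beside 22.5% and 21.0% of all genes. The median log2 fold change was -0.21 over the 41 members and -0.0041 over all genes tested. The number called was 2 without control sample 1 (Itga1 and Itgb8) and 7 without control sample 3, which added Hspg2, Itga4 and Itga9 to the 4.

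**Figure D1:**
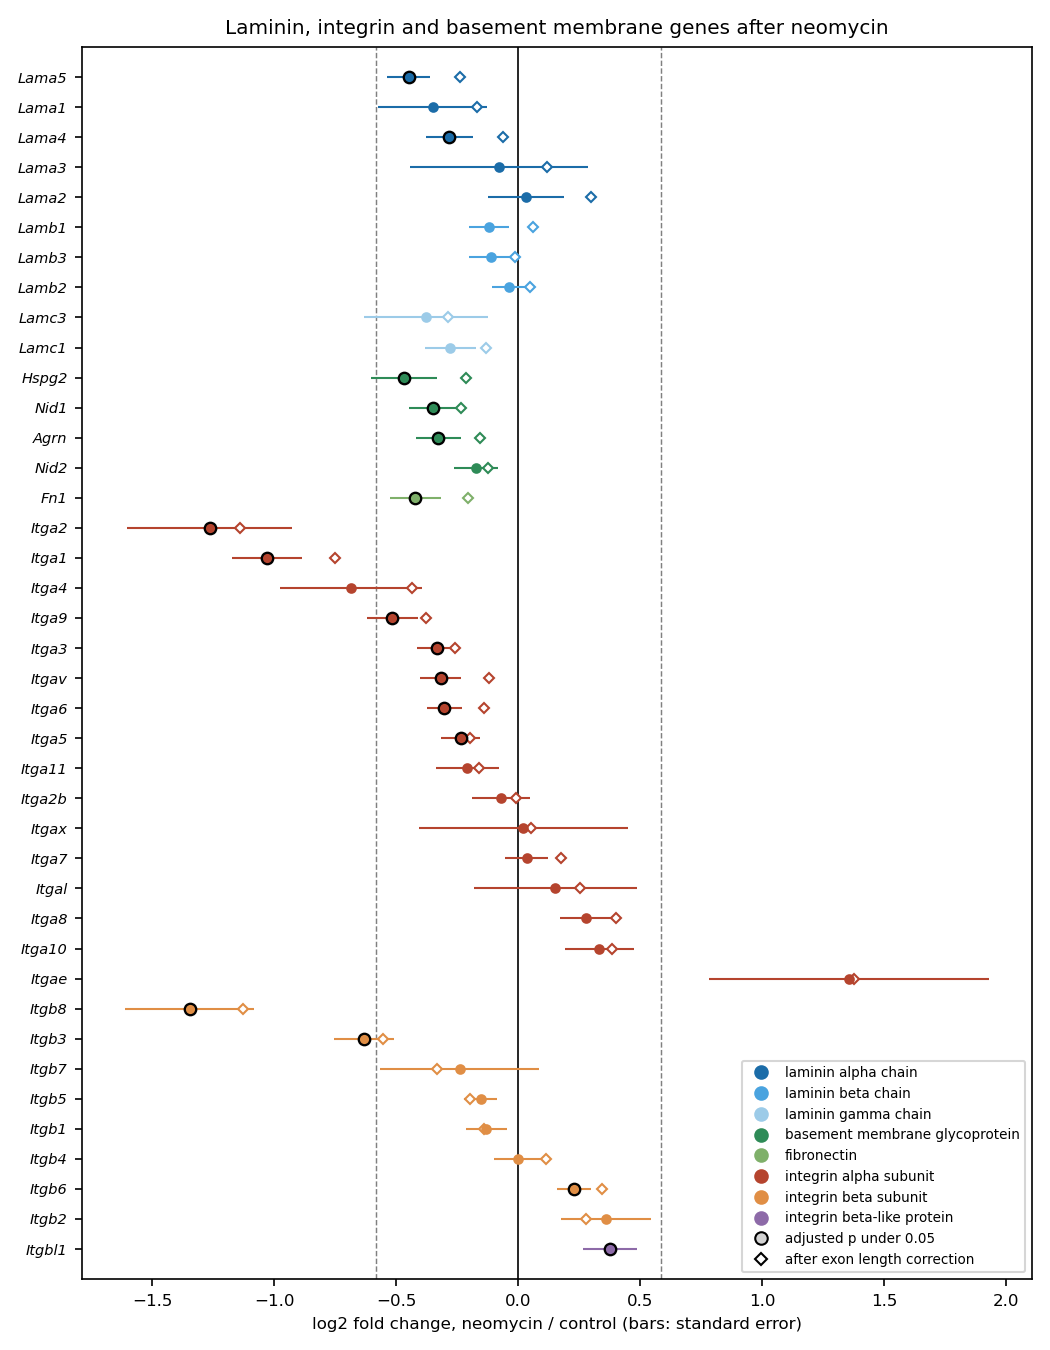
Log2 fold change of tested members (neomycin over control, x axis), grouped by role, with bars of 1 standard error. Black rings mark adjusted p under 0.05, open diamonds the value after correction for exon length, and dashed lines a fold change of 1.5. Itga1, Itga2, Itgb3 and Itgb8 are ringed beyond the left dashed line, while most laminin chains lie between it and 0.

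These genes are long, and length moved with the result. Their median exon length (union of all annotated exons, GENCODE M21) was 7063 bases, beside 4255 bases over all genes tested. When all genes were split by exon length into 5 classes of equal size, 14 members were in the class of 5042 to 7356 bases and 19 in the longest class (7357 bases or more). In the longest class 33.5% of all genes were lower with adjusted p under 0.05 and 2.90% higher, against 4.88% lower and 29.1% higher in the shortest. A second fit therefore removed each sample's trend of counts on exon length. There 8 members (19.5%) were lower and 4 (9.76%) higher, beside 13.1% and 10.4% of 15862 genes, and the members' median was -0.13. Of the 15 lower genes, Agrn, Fn1, Hspg2, Itga5, Itga6, Itgav, Lama4 and Nid1 no longer passed the adjusted p, and Itgb5 did. Itga8 and Itga10 were then higher in addition to Itgb6 and Itgbl1. The length-corrected value is given below for every member past the adjusted p in either fit and for a few others.

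**Figure D2:**
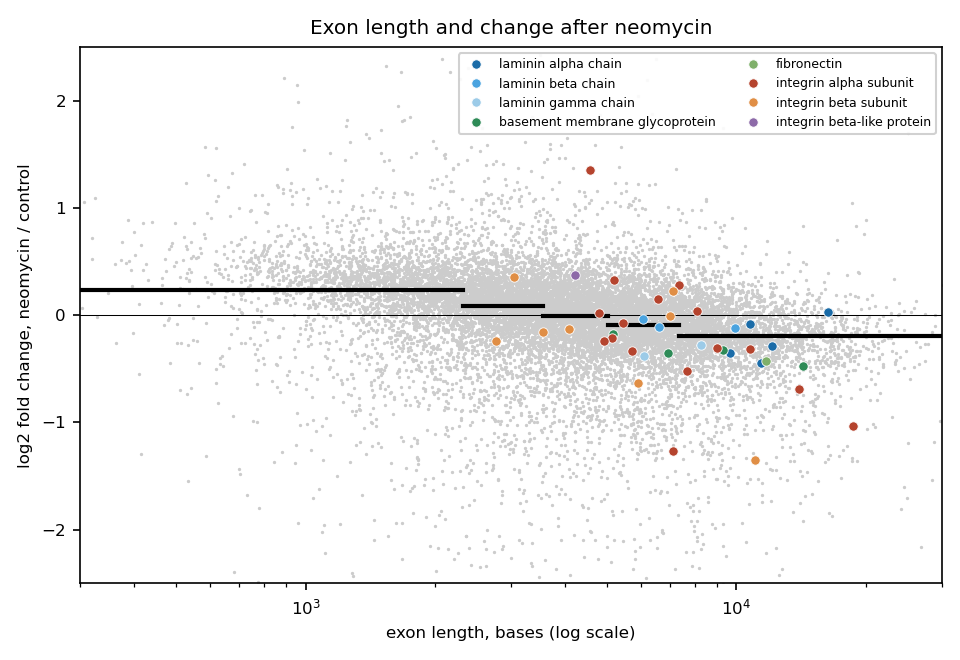
Log2 fold change (neomycin over control, y axis) against exon length in bases (x axis, log scale), with all genes in grey and the members in the colour of their role. Black bars are the medians of 5 equal classes of genes by length, which run from 0.24 in the shortest to -0.19 in the longest, and a few genes beyond the axes are not drawn. Most members sit in the longest 2 classes, and the 4 called integrin genes lie below their class median.

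Among the laminin alpha chains, Lama5, the alpha chain of most epithelial and vessel basement membranes, was the most abundant and was lower after neomycin. Lama5 (chr2:180176373-180225859, minus strand) measured 233, 213 and 189 CPM in control samples 1 to 3 and 159, 143 and 163 CPM in neomycin samples 1 to 3. Every neomycin value was below every control value, with means of 212 ± 22.3 and 155 ± 10.5 CPM (SD, n = 3) and a log2 fold change of -0.45 (SE 0.089, adjusted p = 0.00327). The length-corrected log2 fold change was -0.24 (adjusted p = 0.0241), and -0.13 (adjusted p = 0.166) when the longest transcript stood for the length. Lama4, an alpha chain of vessels and mesenchyme, measured 105, 82.7 and 80.0 CPM in control samples 1 to 3 and 73.0, 75.1 and 71.7 CPM in neomycin samples 1 to 3. Here too the groups did not overlap (log2 fold change -0.28, SE 0.095, adjusted p = 0.0419), but the difference was -0.064 (adjusted p = 0.596) after length correction. It passed in 1 of the 6 fits that left out a sample, the one without control sample 3, and was -0.14 (adjusted p = 0.194) without control sample 1.

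The other 3 alpha chains did not pass the test. Lama2, the chain of muscle and Schwann cell basement membranes, had overlapping values of 36.3, 24.6 and 21.7 CPM in control samples 1 to 3 and 29.8, 29.2 and 25.6 CPM in neomycin samples 1 to 3 (log2 fold change 0.031, SE 0.15, adjusted p = 0.901). It was 0.30 (adjusted p = 0.0919) with length corrected. Lama1, best known from embryonic basement membranes, lay between 2.07 and 3.43 CPM (log2 fold change -0.35, SE 0.22, adjusted p = 0.261). Lama3, which builds the anchoring laminin of stratified epithelia, lay between 0.492 and 0.912 CPM (log2 fold change -0.079, SE 0.36, adjusted p = 0.893).

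The 250 bases upstream of the Lama5 start site are shown because it is the main laminin alpha chain of the explants (RefSeq, GRCm38.p6, chr2:180225860-180226109, minus strand, 5′ to 3′). Capitals mark matches to any of 5 letter patterns, searched on both strands, none of which contains another. The TEAD pattern, for the partner of the Hippo effector YAP, was GGAATG, which 12.6% of 32851 promoter windows of this length held. The GC box was GGGCGG, held by 32.7% of them. The CCAAT box stood in 33.8% of the windows. The TATA box was TATAAA, in 12.4%. The AP-1 pattern was TGANTCA, in 6.75%. The Lama5 window held GC boxes only, with their first letters at -196, -128, -59 and -14 from the start site.
Lama5: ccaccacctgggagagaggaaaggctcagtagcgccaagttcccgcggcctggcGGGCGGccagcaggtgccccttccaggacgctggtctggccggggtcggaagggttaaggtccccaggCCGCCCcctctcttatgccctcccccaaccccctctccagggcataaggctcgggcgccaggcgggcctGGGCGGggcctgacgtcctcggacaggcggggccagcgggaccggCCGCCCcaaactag

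The beta and gamma chains showed no call in either direction. Lamb1, the usual beta chain, measured 471, 432 and 400.0 CPM in control samples 1 to 3 and 396, 395 and 407 CPM in neomycin samples 1 to 3. Control sample 3 lay inside the neomycin range (log2 fold change -0.12, SE 0.082, adjusted p = 0.285), and the length-corrected value was above 0 at 0.061 (adjusted p = 0.553). Lamb2, the beta chain of synapses and kidney filter, lay between 140.1 and 158 CPM in all 6 samples (log2 fold change -0.038, SE 0.071, adjusted p = 0.723). Lamb3, the partner of Lama3, lay between 29.5 and 37.4 CPM (log2 fold change -0.11, SE 0.088, adjusted p = 0.36). Lamc1, the usual gamma chain, measured 259, 219 and 196 CPM in control samples 1 to 3 and 207, 176 and 173 CPM in neomycin samples 1 to 3, so that neomycin sample 1 exceeded control sample 3 (log2 fold change -0.28, SE 0.11, adjusted p = 0.0646; length-corrected -0.13, adjusted p = 0.274). It passed the adjusted p in DESeq2 (-0.27, adjusted p = 0.0356) and without the low count filter (-0.28, adjusted p = 0.0402). The same held without control sample 3 (-0.36, adjusted p = 0.0174) and without neomycin sample 1 (-0.36, adjusted p = 0.0265). Lamc3 lay between 1.59 and 2.94 CPM (log2 fold change -0.38, SE 0.25, adjusted p = 0.286).

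Divided by exon length, the laminin chains kept one order of abundance. Lama5 made up 66.4 ± 1.81% of the alpha chain CPM per kilobase in control and 62.6 ± 2.29% after neomycin (SD, n = 3). Lama4 followed with 26.3 ± 1.19% and 28.0 ± 1.57%, and Lama2 with 5.94 ± 0.905% and 7.96 ± 0.765%. With the longest transcript as the length, the control shares of Lama5 and Lama4 were 50.9% and 40.2%, in the same order. Lamb1 held 59.2 ± 1.43% of the beta chains in control and 58.1 ± 1.61% after neomycin, ahead of Lamb2 at 33.6 ± 1.06% and 34.9 ± 1.15%. Lamc1 held 66.7 ± 3.24% and 65.4 ± 2.63% of the gamma chains. The shares of Lama5, Lama4, Lamb1, Lamb2 and Lamc1 overlapped between the groups, and those of Lama2 did not. These shares are descriptions with no test.

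Among the basement membrane glycoproteins, 3 of 4 were lower by the adjusted p, beside 16.1% of all genes and 33.5% of the longest length class. None was lower by more than 1.5-fold, and none passed once length was corrected. Agrn, the proteoglycan that clusters receptors at the nerve-muscle synapse and binds laminin, measured 423, 357 and 334 CPM in control samples 1 to 3 and 299, 285 and 304 CPM in neomycin samples 1 to 3. The groups were apart, with a log2 fold change of -0.33 (SE 0.092, adjusted p = 0.0196), and a length-corrected value of -0.16 (adjusted p = 0.145). Hspg2 measured 248, 195 and 153 CPM in control samples 1 to 3 and 138, 137 and 156 CPM in neomycin samples 1 to 3. Neomycin sample 3 was above control sample 3, so the groups overlapped (log2 fold change -0.47, SE 0.14, adjusted p = 0.0219; length-corrected -0.21, adjusted p = 0.16). Nid1, which bridges the laminin gamma chain and type IV collagen, measured 153, 131 and 115 CPM in control samples 1 to 3 and 98.8, 110.2 and 104 CPM in neomycin samples 1 to 3. It was lower in all 3 neomycin samples (log2 fold change -0.35, SE 0.097, adjusted p = 0.018; length-corrected -0.24, adjusted p = 0.0568). Nid2, its paralog, overlapped between groups at 93.8, 80.0 and 77.1 CPM in control samples 1 to 3 and 80.7, 67.4 and 74.4 CPM in neomycin samples 1 to 3 (log2 fold change -0.17, SE 0.091, adjusted p = 0.169). Each of the 3 lower genes missed the adjusted p threshold when control sample 1 was left out, with values of 0.0824 for Agrn, 0.0736 for Hspg2 and 0.069 for Nid1. Agrn also missed it without neomycin sample 2 (0.0978), Hspg2 without control sample 2 (0.0637) or neomycin sample 2 (0.093), and Nid1 without control sample 2 (0.054) or neomycin sample 3 (0.0504).

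Fn1, the main RGD ligand of integrins, measured 547, 466 and 401 CPM in control samples 1 to 3 and 360.4, 337 and 357 CPM in neomycin samples 1 to 3. All neomycin values were below all control values, with means of 471 ± 73.3 and 352 ± 12.4 CPM (SD, n = 3) and a log2 fold change of -0.42 (SE 0.10, adjusted p = 0.0102). The length-corrected value was -0.21 (adjusted p = 0.0676), and the adjusted p was 0.0605 without neomycin sample 2. In control sample 3, Fn1 and the matrix genes of the plot by sample were the lowest of the control group, closest to the neomycin values. Over all members tested, the median log2 difference from the control mean was 0.12, 0.04 and -0.14 in control samples 1, 2 and 3, and -0.18, -0.24 and -0.14 in neomycin samples 1, 2 and 3.

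**Figure D3:**
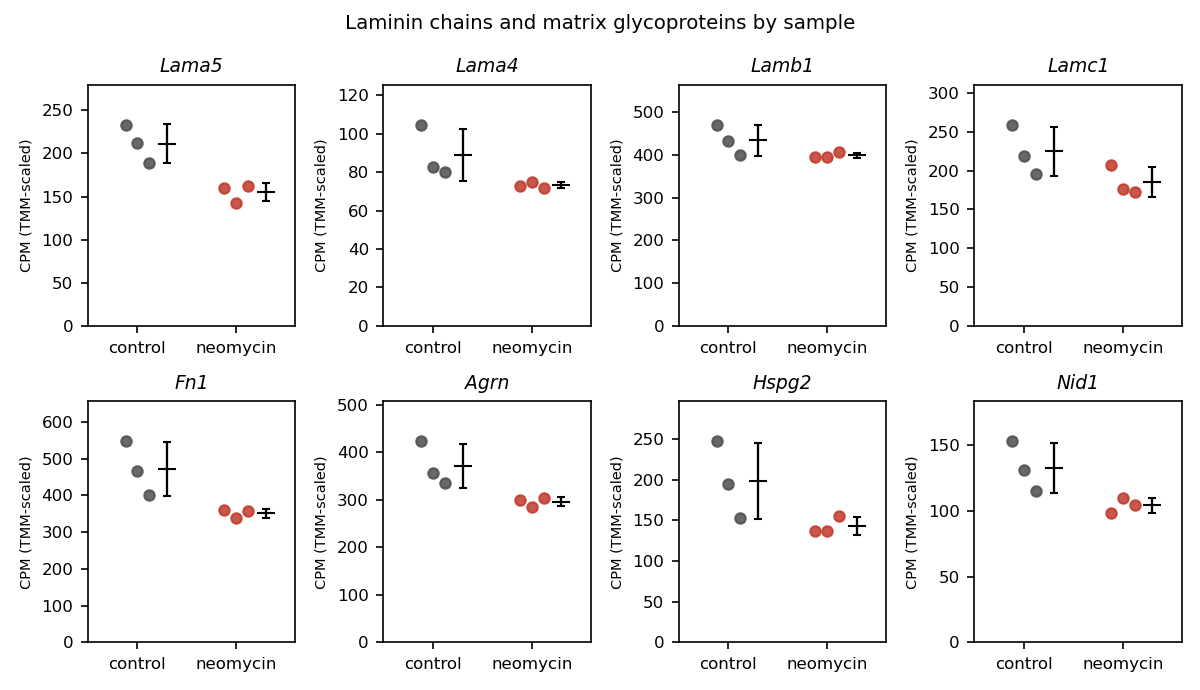
CPM (TMM-scaled, y axis from 0) of 4 laminin chains, Fn1, Agrn, Hspg2 and Nid1 in each control (grey) and neomycin (red) sample, in replicate order from left to right, with bars of mean and SD (n = 3). In every panel control sample 1 is the highest and control sample 3 the lowest of its group, and in Hspg2, Lamb1 and Lamc1 the groups overlap.

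The integrin subunits held all 4 called members. Of 24 tested, 9 (37.5%) were lower and 1 (4.17%) was higher by the adjusted p, beside 16.1% and 12.9% of all genes. With length corrected, 7 (29.2%) were lower and 3 (12.5%) higher, beside 13.1% and 10.4%. The collagen-binding alpha subunits divided, with Itga1 and Itga2 called lower and Itga10 and Itga11 not. Itga1 (chr13:114953096-115101964, minus strand), a receptor for type IV collagen in vessels and mesenchyme, measured 11.9, 14.3 and 10.4 CPM in control samples 1 to 3 and 5.57, 5.64 and 6.65 CPM in neomycin samples 1 to 3. Every neomycin value was below every control value, with means of 12.2 ± 2.00 and 5.95 ± 0.600 CPM (SD, n = 3). The gene had a log2 fold change of -1.03 (SE 0.14, adjusted p = 0.000393), and with length corrected the value was -0.75 (adjusted p = 0.00165). No alternative processing and no left-out sample ended the call, with adjusted p between 0.000327 and 0.00415 when samples were left out. Its annotated exons share bases with Gm49395 on the same strand, and reads of both cannot be told apart.

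Itga2 (chr13:114833081-114932100, minus strand), the collagen receptor of platelets and epithelia, lies 20995 bases from Itga1 on chromosome 13. It was low, at 2.30, 1.96 and 1.12 CPM in control samples 1 to 3 and 0.810, 0.814 and 0.614 CPM in neomycin samples 1 to 3. All neomycin values were below the lowest control value, with means of 1.79 ± 0.608 and 0.746 ± 0.114 CPM (SD, n = 3) and a log2 fold change of -1.27 (SE 0.34, adjusted p = 0.0151). The length-corrected value was -1.14 (adjusted p = 0.0225). The call was lost without control sample 1 (-1.03, adjusted p = 0.0775), without control sample 2 (-1.20, adjusted p = 0.0616) and without neomycin sample 3 (-1.14, adjusted p = 0.0505).

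The 250 bases upstream of both start sites are shown because these neighbours were the only collagen receptors called (RefSeq, GRCm38.p6, minus strand, Itga1 at chr13:115101965-115102214 and Itga2 at chr13:114932101-114932350). Neither window held any of the 5 patterns.
Itga1: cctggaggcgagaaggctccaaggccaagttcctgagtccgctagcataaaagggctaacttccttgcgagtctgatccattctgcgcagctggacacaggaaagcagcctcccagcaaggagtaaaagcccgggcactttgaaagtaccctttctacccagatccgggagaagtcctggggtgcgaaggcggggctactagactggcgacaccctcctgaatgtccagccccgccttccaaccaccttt
Itga2: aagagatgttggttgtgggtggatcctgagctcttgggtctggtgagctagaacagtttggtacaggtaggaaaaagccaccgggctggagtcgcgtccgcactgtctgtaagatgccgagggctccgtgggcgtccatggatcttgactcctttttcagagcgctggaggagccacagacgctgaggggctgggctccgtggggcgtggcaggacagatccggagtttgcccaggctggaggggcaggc

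Itga10, the collagen receptor of cartilage, measured 30.1, 23.0 and 18.3 CPM in control samples 1 to 3 and 30.8, 29.6 and 29.4 CPM in neomycin samples 1 to 3. The 3 neomycin samples lay close together, and control sample 1 lay among them (log2 fold change 0.33, SE 0.14, adjusted p = 0.0948). It passed with length corrected (0.38, adjusted p = 0.0497) and without control sample 1 (0.55, adjusted p = 0.00323). Itga11, the fibroblast collagen receptor, lay between 12.7 and 20.0 CPM (log2 fold change -0.21, SE 0.13, adjusted p = 0.249).

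The laminin-binding alpha subunits Itga3 and Itga6 were lower, with fold changes of 0.794 and 0.811. Itga3, the receptor for Lama5 and Lama3 laminins, measured 117, 118 and 101 CPM in control samples 1 to 3 and 92.7, 81.9 and 91.7 CPM in neomycin samples 1 to 3. The groups were apart (log2 fold change -0.33, SE 0.083, adjusted p = 0.0109), and the value was -0.26 (adjusted p = 0.0213) with length corrected. The adjusted p was 0.0602 without control sample 2 and 0.0752 without neomycin sample 2. Itga6, which pairs with Itgb4 in hemidesmosomes and with Itgb1 elsewhere, measured 158, 163 and 143 CPM in control samples 1 to 3 and 126, 128 and 122 CPM in neomycin samples 1 to 3. Again the groups were apart (log2 fold change -0.30, SE 0.074, adjusted p = 0.00958), but the length-corrected value was -0.14 (adjusted p = 0.111), and the adjusted p was 0.0551 without control sample 2. The value of Itga6 was -0.23 (adjusted p = 0.017) when the longest transcript stood for the length. Itga7, the laminin receptor of muscle and Schwann cells, lay between 20.4 and 22.8 CPM in all samples (log2 fold change 0.035, SE 0.087, adjusted p = 0.796).

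Among the RGD-binding alpha subunits, Itgav and Itga5 were lower and Itga8 had the opposite sign. Itgav, the shared alpha subunit of the vitronectin receptors, measured 109.8, 131 and 104 CPM in control samples 1 to 3 and 91.9, 90.6 and 93.7 CPM in neomycin samples 1 to 3. The neomycin samples lay within a few CPM of each other and below all controls (log2 fold change -0.32, SE 0.085, adjusted p = 0.0154), and the length-corrected value was -0.12 (adjusted p = 0.27). The adjusted p was 0.0824 without control sample 2 and 0.0734 without neomycin sample 2. Itga5, the classical fibronectin receptor, measured 47.2, 49.1 and 42.7 CPM in control samples 1 to 3 and 37.6, 38.0 and 42.4 CPM in neomycin samples 1 to 3. Neomycin sample 3 came within 1 CPM of control sample 3 (log2 fold change -0.24, SE 0.081, adjusted p = 0.045; length-corrected -0.20, adjusted p = 0.0775). Of the 6 fits that left out a sample, 4 took the adjusted p of Itga5 over 0.05 (control samples 1 and 2, neomycin samples 1 and 2), with values up to 0.183.

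Itga8, an RGD receptor known in the inner ear from hair bundles, measured 178, 142 and 137 CPM in control samples 1 to 3 and 201, 189 and 163 CPM in neomycin samples 1 to 3. Control sample 1 exceeded neomycin sample 3, so the groups overlapped, with means of 152 ± 22.3 and 184 ± 19.1 CPM (SD, n = 3) and a log2 fold change of 0.28 (SE 0.11, adjusted p = 0.068). It passed the adjusted p in DESeq2 (0.28, adjusted p = 0.0313) and with length corrected (0.40, adjusted p = 0.00615). Leaving out control sample 1 gave 0.41 (adjusted p = 0.00743). The sums of the HC markers in the same samples are given above. Itga2b, the platelet fibrinogen receptor subunit, lay between 11.8 and 16.1 CPM (log2 fold change -0.071, SE 0.12, adjusted p = 0.693), and the platelet markers are given below.

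Itga9, a receptor for tenascin and other matrix ligands, measured 69.1, 64.0 and 49.7 CPM in control samples 1 to 3 and 42.1, 41.9 and 43.8 CPM in neomycin samples 1 to 3. All neomycin values were below all control values, with means of 60.9 ± 10.1 and 42.6 ± 1.06 CPM (SD, n = 3) and a log2 fold change of -0.52 (SE 0.10, adjusted p = 0.00374). No alternative took the adjusted p over 0.05, and with length corrected it was -0.38 (adjusted p = 0.00707), but its fold change of 1.43 was under the threshold of 1.5. Without control sample 3 it was called (-0.63, adjusted p = 0.000175). Itga4, the related receptor for Vcam1, measured 3.16, 2.28 and 1.78 CPM in control samples 1 to 3 and 1.62, 1.07 and 1.83 CPM in neomycin samples 1 to 3, with overlap of the groups (log2 fold change -0.68, SE 0.29, adjusted p = 0.0958). It was -0.85 (adjusted p = 0.0495) without control sample 3, and its exons share bases with Cerkl on the opposite strand.

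The leukocyte alpha subunits of this set, Itgae, Itgal and Itgax, were near the limit of detection, and Itgam was not in the set. Itgae, the receptor of intraepithelial T cells for E-cadherin, had 15, 7 and 3 reads in control and 23, 20 and 16 after neomycin. Its values did not overlap (log2 fold change 1.36, SE 0.57, adjusted p = 0.0944), and the test was not passed. Itgal and Itgax, of lymphocytes and dendritic cells, lay between 0.390 and 1.02 CPM with log2 fold changes of 0.15 (adjusted p = 0.765) and 0.020 (adjusted p = 0.978).

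**Figure D4:**
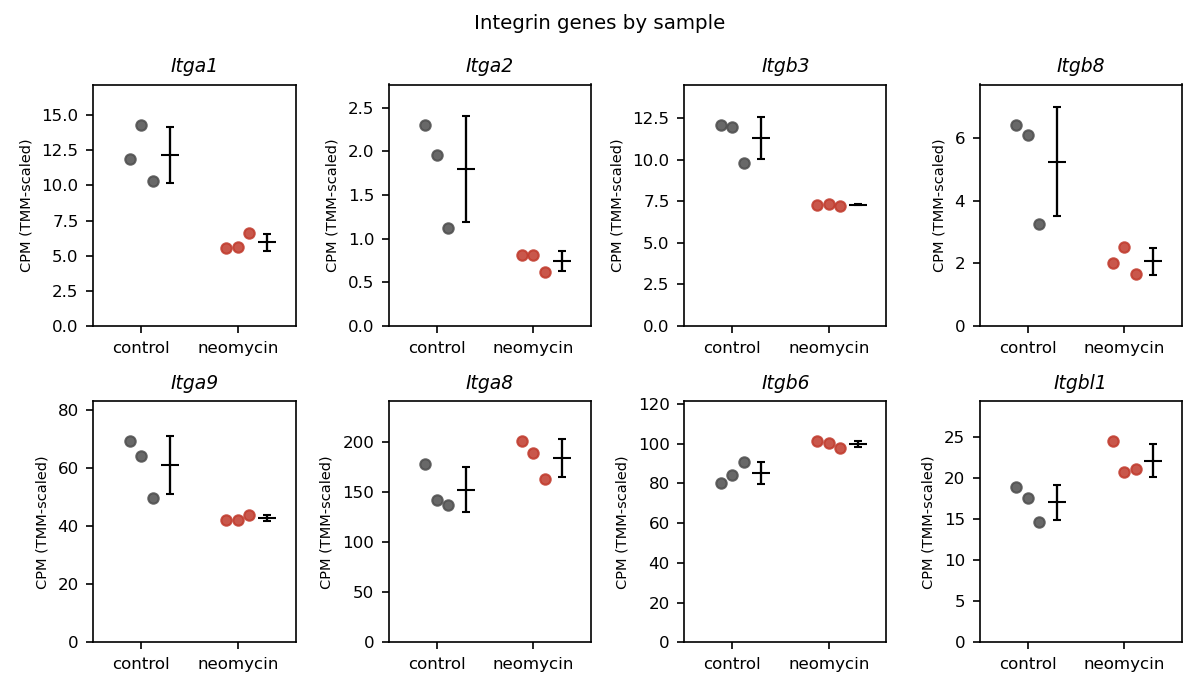
CPM (TMM-scaled, y axis from 0) of 8 integrin genes in each control (grey) and neomycin (red) sample, in replicate order from left to right, with bars of mean and SD (n = 3). In the top row, Itga1, Itga2, Itgb3 and Itgb8, every neomycin sample lies below every control sample. In the bottom row Itga9 is lower, Itgb6 and Itgbl1 are higher, and Itga8 overlaps.

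Among the beta subunits, those that pair with Itgav moved in different directions. Itgb8 (chr12:119158022-119238802, minus strand), whose receptor activates latent TGF-beta, measured 6.42, 6.08 and 3.24 CPM in control samples 1 to 3 and 2.00, 2.53 and 1.66 CPM in neomycin samples 1 to 3. Its highest neomycin value was below its lowest control value, with means of 5.25 ± 1.75 and 2.06 ± 0.438 CPM (SD, n = 3) and a log2 fold change of -1.35 (SE 0.26, adjusted p = 0.00312). The length-corrected value was -1.13 (adjusted p = 0.00459). Control sample 3 was far below the other two controls. The call held in every fit that left out a sample, with adjusted p between 0.000408 and 0.0217. Itgb3 (chr11:104608000-104670476, plus strand), of the vitronectin and platelet receptors, measured 12.1, 12.0 and 9.82 CPM in control samples 1 to 3 and 7.29, 7.31 and 7.24 CPM in neomycin samples 1 to 3. The neomycin samples were almost equal and below all controls, with means of 11.3 ± 1.28 and 7.28 ± 0.0322 CPM (SD, n = 3) and a log2 fold change of -0.63 (SE 0.12, adjusted p = 0.00295). With length corrected it was -0.55 (adjusted p = 0.00411), and without control sample 1 it was -0.57 (adjusted p = 0.0104), both under the fold threshold.

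Itgb6, the epithelial partner of Itgav that also activates latent TGF-beta, measured 80.4, 84.3 and 91.0 CPM in control samples 1 to 3 and 101, 100.2 and 98.0 CPM in neomycin samples 1 to 3. It was higher in all 3 neomycin samples, with means of 85.2 ± 5.35 and 99.8 ± 1.66 CPM (SD, n = 3) and a log2 fold change of 0.23 (SE 0.071, adjusted p = 0.0297), and 0.34 (adjusted p = 0.00488) with length corrected. The adjusted p was over 0.05 in 5 of the 6 fits that left out a sample, all but the one without control sample 3, and at most 0.107. Itgb5, a vitronectin receptor subunit, measured 182, 176 and 175 CPM in control samples 1 to 3 and 156, 157 and 165 CPM in neomycin samples 1 to 3. The groups were apart (log2 fold change -0.15, SE 0.067, adjusted p = 0.103), and the gene passed only with length corrected (-0.20, adjusted p = 0.0316) or with the replicate number in the fit. Itgb5 did not pass when the longest transcript stood for the length (-0.16, adjusted p = 0.068).

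Itgb1, the common partner of the laminin, collagen and fibronectin receptors, measured 671, 749 and 669 CPM in control samples 1 to 3 and 611, 639.8 and 655 CPM in neomycin samples 1 to 3. The groups were just apart, but the test was not passed (log2 fold change -0.13, SE 0.083, adjusted p = 0.256). Its upstream window is shown because it was the most abundant integrin transcript (RefSeq, GRCm38.p6, chr8:128685404-128685653, plus strand). It held a GC box at -151 and a TEAD pattern at -7.
Itgb1: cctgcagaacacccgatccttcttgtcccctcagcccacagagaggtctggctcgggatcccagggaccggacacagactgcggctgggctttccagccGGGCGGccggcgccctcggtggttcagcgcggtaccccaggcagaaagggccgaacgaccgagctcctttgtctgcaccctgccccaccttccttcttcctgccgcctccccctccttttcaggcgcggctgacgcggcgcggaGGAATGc

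Itgb4, the hemidesmosome subunit, lay between 28.5 and 35.4 CPM with a log2 fold change of -0.0032 (SE 0.096, adjusted p = 0.985), and the sign of this value differed between settings. Itgb2, the shared beta subunit of leukocytes, measured 4.96, 4.64 and 3.91 CPM in control samples 1 to 3 and 4.37, 6.17 and 6.81 CPM in neomycin samples 1 to 3, with overlap (log2 fold change 0.36, SE 0.19, adjusted p = 0.163). It was 0.53 (adjusted p = 0.0404) without neomycin sample 1. Itgb7, of lymphocytes, lay between 0.966 and 2.12 CPM (log2 fold change -0.24, SE 0.33, adjusted p = 0.615). Itgb2l, a relative of Itgb2, did not pass the low count filter, with 25, 8 and 12 reads in control and 7, 7 and 8 after neomycin. Itgbl1, a secreted protein with integrin beta EGF-like repeats but no receptor function of its own, measured 18.9, 17.5 and 14.7 CPM in control samples 1 to 3 and 24.5, 20.8 and 21.1 CPM in neomycin samples 1 to 3. It was higher in every neomycin sample (log2 fold change 0.38, SE 0.11, adjusted p = 0.0252; length-corrected 0.38, adjusted p = 0.0234), though 4 of the 6 fits that left out a sample took the adjusted p over 0.05 (control samples 2 and 3, neomycin samples 1 and 2), up to 0.0813.

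Per kilobase of exon, Itgb1 stood above all other beta subunits, with 170.6 ± 11.2 CPM per kilobase in control and 156 ± 5.44 after neomycin (SD, n = 3), or 70.5 ± 1.34% and 69.8 ± 0.391% of the beta subunits. Itgb5 was next, with 20.7 ± 1.13% and 20.1 ± 0.311%, then Itgb6. The Itgb6 share was 4.78, 4.65 and 5.47% over the controls, and 6.59, 6.29 and 6.01% in the neomycin group. These ranges did not overlap. The called subunits were minor ones, Itgb3 with 0.791 ± 0.0776% and 0.553 ± 0.0181%, and Itgb8 with 0.195 ± 0.0626% and 0.0836 ± 0.0183%.

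The alpha subunits were spread more evenly. Itga8, Itga3 and Itga6 led in control with 20.6 ± 3.03, 19.6 ± 1.71 and 17.2 ± 1.17 CPM per kilobase. Within the control samples, Itga8 was above Itga3 in samples 1 and 3 and below it in sample 2. Itga3 was above Itga6 in each control sample, although their ranges overlapped. The values were 20.4, 20.7 and 17.6 CPM per kilobase for Itga3 and 17.5, 18.1 and 15.8 for Itga6 in control samples 1 to 3. With the longest transcript as the length Itga6 came first with 25.7% of the alpha subunits. After neomycin Itga8 measured 25.0 ± 2.59 CPM per kilobase, with all 3 samples above those of Itga3 at 15.5 ± 1.05 and Itga6 at 13.9 ± 0.376. Itga8 held 22.6, 18.6 and 20.8% of the alpha subunits over the controls, and 29.1, 28.2 and 24.9% in the neomycin group. Together the laminin-binding subunits Itga3, Itga6 and Itga7 held 39.5 ± 1.39% of the alpha subunits in control and 35.2 ± 0.827% after neomycin. The RGD-binding subunits held 43.4 ± 0.563% and 48.3 ± 0.883%, the collagen-binding ones 8.74 ± 1.07% and 9.92 ± 0.280%, and Itga4 with Itga9 8.08 ± 0.639% and 6.20 ± 0.306%. The collagen-binding shares overlapped, with 9.97% in control sample 1 and 9.67% in neomycin sample 3. These class shares rest on exon length. By longest transcript the control shares were 25.7% for Itga6 and 18.7% for Itga8, so the order of the classes depends on the length. Itga1 and Itga2 were minor, with 0.656 ± 0.0807% and 0.248 ± 0.0651% in control. The shares of a class are descriptions with no test, and a larger share of one subunit lowers the others.

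**Figure D5:**
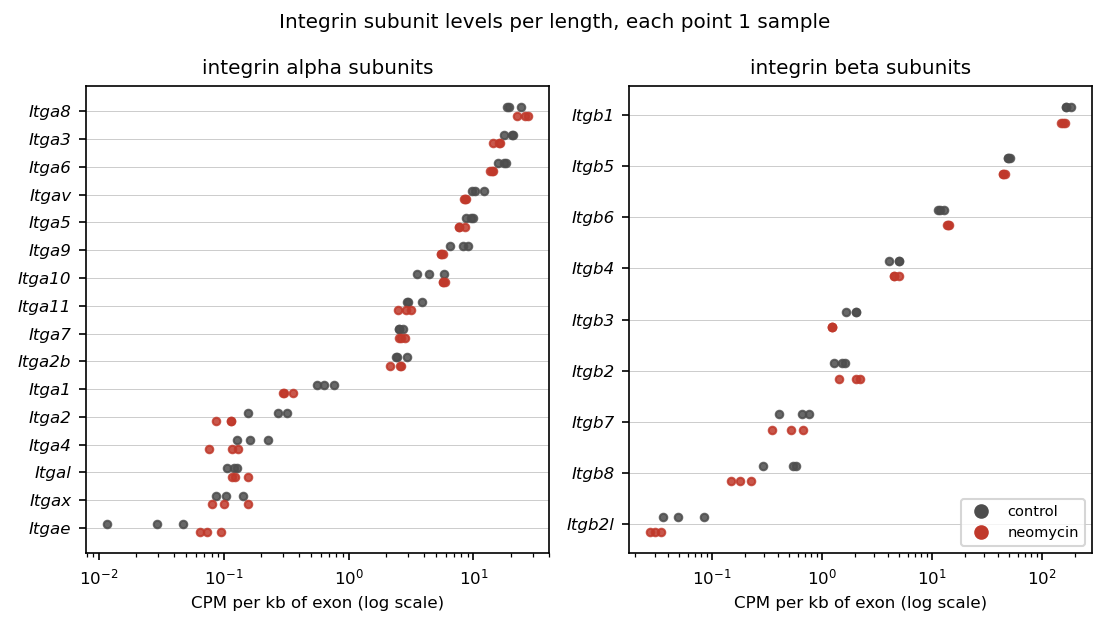
Level of each integrin alpha (left) and beta (right) subunit in CPM per kilobase of exon (x axis, log scale), with 1 point for each control (grey) and neomycin (red) sample. Itga8, Itga3 and Itga6 lead the alpha subunits and Itgb1 the beta subunits, and the called genes Itga1, Itga2 and Itgb8 lie below 1 CPM per kilobase.

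Genes that work with these receptors were read from 3 lists, to be set beside 6.60% of all genes called lower and 16.1% lower by the adjusted p. Of 30 genes of the integrin adhesion complex (talins, kindlins, vinculin, kinases and adaptors), 1 (3.33%) was called lower and none higher, 10 (33.3%) were lower and 1 higher by the adjusted p, and the median log2 fold change was -0.18. The called gene was Tns4, a tensin that binds integrin tails, with 1.72, 2.67 and 1.41 CPM in control and 0.640, 0.441 and 1.08 CPM after neomycin (-1.42, SE 0.38, adjusted p = 0.0152). Of 27 basement membrane partners and other laminin receptors, 1 (3.70%) was called lower, 6 (22.2%) were lower and 1 higher by the adjusted p, and the median was -0.11.

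Of 23 other integrin ligands tested, 3 (13.0%) were called lower, 7 (30.4%) were lower and none higher by the adjusted p, and the median was -0.14. Thbs2, a matricellular thrombospondin, measured 48.1, 53.7 and 53.0 CPM in control and 27.6, 38.0 and 29.7 CPM after neomycin (-0.70, SE 0.11, adjusted p = 0.000792). Vwf, the endothelial ligand of platelets, measured 2.30, 2.32 and 2.19 CPM in control and 0.885, 0.644 and 1.12 CPM after neomycin (-1.37, SE 0.28, adjusted p = 0.00407). Icam2, an endothelial ligand of leukocyte integrins, measured 1.23, 0.920 and 1.89 CPM and 0.584, 0.254 and 0.261 CPM (-1.88, SE 0.44, adjusted p = 0.0078). In Tns4, Thbs2, Vwf and Icam2 every neomycin value was below every control value, as in 22.5% of all genes. These genes were named because the same values passed the test, so the separation adds no support. The 5 called genes of these lists became 9 without control sample 3 and 8 without neomycin sample 1.

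Lists of cell type markers were read in the same comparison, beside 6.60% of all genes called lower and 2.24% called higher. Of 16 HC markers, 14 were called lower, with a median log2 fold change of -1.57. Of 16 endothelial markers, which include Vwf, 10 were called lower and none higher, with a median of -1.34, although their summed level was 384 to 436 CPM in control and 361 to 414 CPM after neomycin. Of 12 pericyte and smooth muscle markers, 3 were called lower, with sums of 373 to 411 CPM and 304 to 323 CPM. Among macrophage and other leukocyte markers, 5 of 16 were called higher and none lower, with sums of 242 to 302 CPM and 321 to 390 CPM. None of these endothelial, pericyte or leukocyte markers was at 0 in all samples. Of 10 platelet and erythroid markers, 4 were tested and Pf4 was called higher, while Hba-a1, Hbb-bs and Hbb-bt were at 0 in every sample. Of the other lists, supporting cells had 2 of 16 markers called lower and 1 higher, neurons 4 of 15 lower, Schwann cells and glia 2 of 14 lower, mesenchyme and fibrocytes 2 of 15 lower and 2 higher, and stria vascularis and melanocytes none of 10 in either direction. The part of these cell types in the members' differences was not tested.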

How the data were processed

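RNA was measured in 3 control and 3 neomycin samples of cochlear explants. Per the labels and methods, the authors called bases with Casava 1.8, trimmed reads with trimmomatic 0.23, aligned them to mm10 with Hisat2 and counted them with HTSeq. The deposited values are raw counts per gene symbol. The strand setting is not given in the sources used here, so genes that share exon bases with a gene on the opposite strand (Fn1, Itga4, Itga7, Itga8, Itgav, Itgb4, Lama2, Lama3, Lamc3, Nid1 and Nid2) may hold reads of it, and Itga1 and Itga10 overlap a same-strand model.

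Counts were tested with edgeR 4.0.16 (R 4.3.3): TMM scaling, filterByExpr, glmQLFit, glmQLFTest and Benjamini-Hochberg adjustment over 15988 genes. SE was taken as the absolute log2 fold change over the root of the F statistic. The length correction subtracted each sample's lowess trend (span 0.3) on log2 exon length, from GENCODE M21 (GRCm38). Alternatives were DESeq2 1.42.0, limma-voom (limma 3.58.1), other scalings, filters and fold thresholds, the replicate block and leaving out each sample. Members are named by role, and of each list the called genes. Some genes are not reported here by name, and the counts include them. The members and gene lists were chosen with earlier results of these data known. RefSeq promoters were found for 27 of 42 members, with chromosome 18, which holds Lama3, left out.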

Additional observations from a re-analysis of the deposited data

How the results depend on the processing

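The 4 called members numbered 4 with DESeq2, limma-voom, RLE or upper-quartile scaling and both low count filters, and 3 with length correction, where Itgb3 fell under the fold threshold. The number ran from 2 to 7 when a sample was left out, and was 17 without the fold threshold. Over all genes, the 1413 called became 4629 without the fold threshold and 686 at a fold over 2. The 5 called genes of the pathway lists became 25 without it, and 4 to 9 when a sample was left out. Members lower by the adjusted p alone numbered 15, and 8 with exon length correction, 9 with that and the replicate block, 7 with the longest transcript as the length (chosen after seeing the data), and 7 to 18 when a sample was left out. Members higher numbered 2, and 4, 5 and 4 under these length corrections, and 0 to 3 when a sample was left out. The members' median was -0.059 with the longest transcript as the length, and between -0.26 and -0.15 when a sample was left out. With that length the control shares were 50.9% for Lama5, 18.7% for Itga8 and 69.0% for Itgb1. The cause of these shifts was not tested.

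With the replicate number as a block, 4 members were called, 18 were lower and 4 higher by the adjusted p; Itga8 and Itga10 (higher) and Itgb5, Lamc1 and Nid2 (lower) were gained. The correlations of same-numbered samples were 0.17, 0.026 and 0.095, and control 2 did not correlate best with its own number, so the samples were not taken as paired.

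Signs turned only in members that did not pass the adjusted p in the reported fit. Of these, Lama2 passed as higher with exon length correction and the replicate block together (0.32, adjusted p = 0.0345). Itgb4 was 0.0031 with DESeq2 and with RLE, 0.0021 with limma-voom, 0.0011 with the replicate block, 0.018 with upper-quartile scaling, and 0.11, 0.11 and 0.20 with the exon length correction, this with the block, and the longest transcript. In that order Lama3 was 0.12, 0.084 and 0.22, Lamb1 0.061, 0.061 and 0.061, and Lamb2 0.047, 0.047 and 0.13, and Lamb3 was 0.0050 with the longest transcript. When a sample was left out, the ranges crossing 0 were -0.12 to 0.036 for Itga2b, -0.0094 to 0.073 for Itga7, -0.29 to 0.24 for Itgax, -0.086 to 0.055 for Itgb4, -0.10 to 0.29 for Lama2, -0.28 to 0.14 for Lama3 and -0.068 to 0.0031 for Lamb2.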
